A study of Homo sapiens with 6 samples.

Results

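The cholesteryl ester and triglyceride storage genes are 10 genes that make, coat and break down the neutral lipid of lipid droplets, together with ACAT2. They were taken by gene symbol from the deposited expression table, which names 81496 gene symbols, and all 10 were found. Where a symbol had several probe sets, that of the highest mean was used, taken over A01, A02, B02, B03 and B04. PLIN2 had 2 probe sets and the others had 1 each.

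MCF10.AT1 cells are HRAS-transformed, preneoplastic descendants of MCF10A, a human breast epithelial line, and are described in the labels as untreated and sensitive to fluvastatin. MCF10.AT1-R is the fluvastatin-resistant line selected from it by exposure to fluvastatin rising from 1 to 20 µM, and is a single derived line, so traits of resistance and traits fixed by chance during selection cannot be told apart. Total RNA of 3 biological replicates per line was measured on Clariom D arrays, whose short probes cover coding and noncoding RNA. The labels repeat the same fluvastatin protocol for every sample, although they describe MCF10.AT1 as untreated. Whether the drug was present when the RNA was taken is not given in the sources used here. A03 of MCF10.AT1, which the study removed as an outlier, correlated with the other arrays at 0.779 to 0.795, against at least 0.967 among the others, and is shown apart. This left A01 and A02 for MCF10.AT1 and B02, B03 and B04 for MCF10.AT1-R. All values below are log2 values made by the RMA method, and a level of 2.99 marks the 95th percentile of the 612 negative control probe sets, averaged over the 5 arrays.

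Breast epithelial markers were read above the negative controls on all 5 arrays, and all 8 of them were higher in MCF10.AT1-R without overlap, as were 13.7% of all gene symbols above the low-expression limit. At an FDR of 5% in limma KRT5, KRT14, KRT17, TP63 and CDH1 passed (5 of the 8, beside 1.01% of all tested gene symbols that were higher). With the trend option all 8 passed, beside 1.69% of the probe sets tested that were higher. CDH1 did not pass in limma without a filter (adjusted p = 0.0616). Among the 5 was KRT17, a basal keratin, at 6.56 ± 0.004 (SD, n = 2) and 10.64 ± 0.09 (SD, n = 3). The summed level of the 8 markers on a linear scale was 1885 on A01 and 1931 on A02, and 5662, 5593 and 6201 on B02, B03 and B04. The highest mean over the 5 arrays belonged to KRT18, although KRT17 read as high in MCF10.AT1-R, and probe sets of different genes are not on 1 scale. This shift of epithelial markers accompanied every comparison of the storage genes, and its part in them was not tested. Since the arrays measured RNA of whole cultures, fewer cells of a kind and less RNA per cell cannot be told apart.

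Cells keep surplus cholesterol and fatty acids as cholesteryl esters and triglycerides in lipid droplets. SOAT1 joins a fatty acid to cholesterol, and DGAT1 and DGAT2 add the last fatty acid of a triglyceride. Perilipins such as PLIN2 and PLIN3 coat the droplet surface. NCEH1 cleaves cholesteryl esters, PNPLA2 (also called ATGL) starts the breakdown of triglycerides, LIPE (hormone-sensitive lipase) cleaves diglycerides and cholesteryl esters, and MGLL releases the last fatty acid from a monoglyceride. ACAT2 has another function: it is the cytosolic thiolase that condenses acetyl-CoA at the entry of the mevalonate pathway, the pathway that statins inhibit. ACAT2 was also an older symbol of SOAT2, a cholesterol acyltransferase, and the array lists the genes apart.

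The promoter windows of PNPLA2 and LIPE are shown because these lipases were among the storage genes whose arrays did not overlap between the lines. A window reaches from 250 bases before to 50 bases after a gene's start, taken from RefSeq on GRCh38.p14, and the bases before the start are printed. The set of RefSeq windows used here held 6 of the 10 genes, 7 windows in all, with 2 starts for LIPE. MGLL, ACAT2, DGAT1 and DGAT2 were not in that set. Capitals mark matches on either strand to CACCCCAC or TCACNCCAC (letters found in sterol regulatory elements, which can overlap each other), the letters CCAAT, the GC box GGGCGG, or the E-box CACGTG.
PNPLA2, chr11:818664-818913, plus strand: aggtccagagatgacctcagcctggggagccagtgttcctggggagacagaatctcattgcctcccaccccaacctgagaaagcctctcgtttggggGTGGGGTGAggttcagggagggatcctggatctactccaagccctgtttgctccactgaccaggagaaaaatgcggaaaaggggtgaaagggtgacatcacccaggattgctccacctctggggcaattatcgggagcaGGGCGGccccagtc
LIPE, upstream start, chr19:42427389-42427638, minus strand: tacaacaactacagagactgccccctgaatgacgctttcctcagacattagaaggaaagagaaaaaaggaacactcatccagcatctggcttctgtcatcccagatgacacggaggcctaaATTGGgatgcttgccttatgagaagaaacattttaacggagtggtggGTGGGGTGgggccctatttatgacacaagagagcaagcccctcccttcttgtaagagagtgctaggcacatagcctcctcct
LIPE, downstream start, chr19:42423586-42423835, minus strand: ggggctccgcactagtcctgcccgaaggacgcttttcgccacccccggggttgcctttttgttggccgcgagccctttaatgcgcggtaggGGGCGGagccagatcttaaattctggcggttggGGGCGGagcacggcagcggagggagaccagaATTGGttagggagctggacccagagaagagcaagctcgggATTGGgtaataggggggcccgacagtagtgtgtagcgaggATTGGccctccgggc

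The letters CACCCCAC were present in the PNPLA2 window and in the upstream LIPE window, on the opposite strand, and in no other of the 7 windows. They occur in 2.79% of all 35116 promoter windows. TCACNCCAC was found in the PNPLA2 window alone and occurs in 1.13% of all windows. The E-box was found in the PLIN2 window alone, against 7.26% of all windows. CCAAT stood in 5 of the 7 windows and GGGCGG in 5, and they occur in 34.6% and 45.0% of all windows. The array has 1 probe set for LIPE, so transcripts from its 2 starts were not separated.

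None of the 10 storage genes passed an FDR of 5% in limma, where 1.2% of the 51457 probe sets tested passed, 0.758% of them higher in MCF10.AT1-R. At an unadjusted p under 0.05 there were 3, LIPE, MGLL and ACAT2, all higher in MCF10.AT1-R, where 3.98% of the probe sets tested were higher at that level. The smallest absolute log2 change that passed among all probe sets was 1.07, and the changes of the 10 genes lay between -0.10 and 0.72. MCF10.AT1-R lay above MCF10.AT1 on every array for 4 of the 10 (PNPLA2, LIPE, MGLL and ACAT2) and below it for none. Over all gene symbols above the low-expression limit, 13.7% were higher and 13.8% lower without overlap, 27.5% together. That limit, 1.88, lies below the negative control level of 2.99, so these shares include gene symbols read within the negative controls. Of the 10 genes, only PLIN2 read below that level on any of the 5 arrays. The median log2 change of the 10 genes was 0.29, beside -0.01 over those gene symbols. When the variance was allowed to follow the expression level (limma's trend option), MGLL and ACAT2 passed an FDR of 5%, both higher in MCF10.AT1-R, where 1.69% of the probe sets tested were higher at that threshold and 2.68% passed in either direction.

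**Figure D1:**
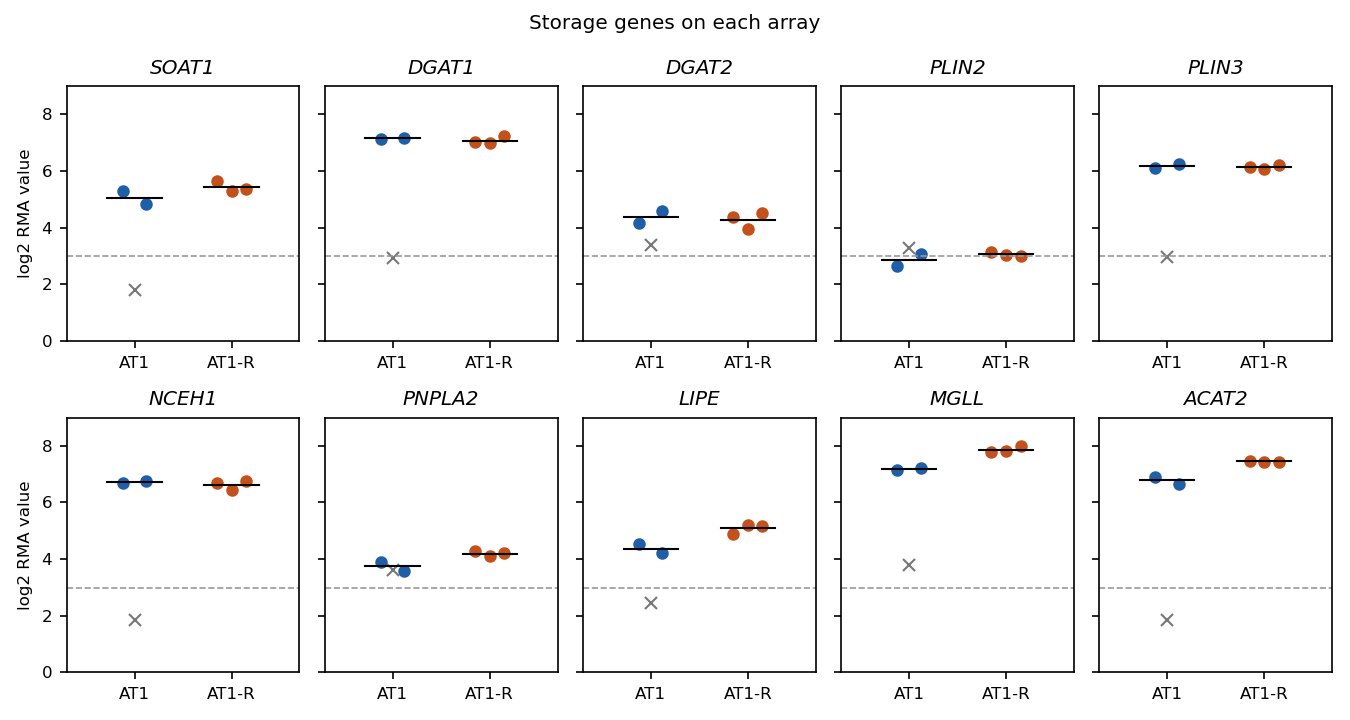
Log2 RMA values of the 10 storage genes, 1 panel per gene, for MCF10.AT1 (AT1, blue, A01 and A02 from left to right) and MCF10.AT1-R (AT1-R, orange, B02, B03 and B04). Black lines are means of the points of a line, grey crosses are A03, which is not in the means, and the dashed line is the negative control level of 2.99. The orange points lie above the blue points for PNPLA2, LIPE, MGLL and ACAT2, and PLIN2 lies at the dashed line.

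The acyltransferases that build the stored esters did not separate the lines. SOAT1 (probe set TC0100010775.hg.1), the sterol O-acyltransferase of most tissues, read 5.28 on A01 and 4.84 on A02, and 5.65, 5.28 and 5.38 on B02, B03 and B04. A01 of MCF10.AT1 lay just above B03 of MCF10.AT1-R, so the lines overlapped by a narrow margin. The log2 change was 0.37, with a 95% interval from -0.24 to 0.98 (adjusted p = 0.825 from limma). SOAT1 and ACAT2 were listed by the study as genes of acquired resistance on these same arrays, so their direction here is not independent evidence. In the main comparison here neither gene passed an FDR of 5%. The study gives no cutoffs for its filter of low and invariant genes, so the fits may differ.

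DGAT1 (TC0800012206.hg.1), the triglyceride-forming enzyme of the endoplasmic reticulum that is structurally related to SOAT1, read 7.11 and 7.18 in MCF10.AT1 and 7.02, 6.98 and 7.22 in MCF10.AT1-R. The values of the lines were interleaved, and the gene was among 3 storage genes removed as invariant (SD over the 5 arrays of 0.176 or lower). Its log2 change from limma without a filter was -0.07, with a 95% interval from -0.50 to 0.36. DGAT2 (TC1100008477.hg.1), which forms triglycerides at droplets and is unrelated in sequence to DGAT1, read 4.18 and 4.58 in MCF10.AT1 and 4.38, 3.96 and 4.52 in MCF10.AT1-R. The log2 change was -0.09, with an interval from -0.70 to 0.52 (adjusted p = 0.947 from limma). Its spread within each line was larger than its difference between them.

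SOAT2, the other cholesterol acyltransferase, read between 1.68 and 2.20 on the 5 arrays, within the negative controls on each. Of the pair, SOAT1 was thus the enzyme whose signal stood above background, and it did so on all 5 arrays.

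PLIN2 (TC0900012212.hg.1), the perilipin found on droplets of most cell types, read 2.64 and 3.08 in MCF10.AT1 and 3.16, 3.04 and 3.00 in MCF10.AT1-R. These values lie at the level of the negative controls, and the other probe set of PLIN2 (TC0900012213.hg.1) read lower still, from 1.64 to 2.25. The first probe set was higher in MCF10.AT1-R by 0.20 (95% interval from -0.41 to 0.81, adjusted p = 0.875 from limma), whereas the other was lower there, at -0.43 (adjusted p = 0.750 from limma without a filter). PLIN2 was thus not read above background with certainty in either line. PLIN3 (TC1900009369.hg.1), a perilipin that moves from the cytosol to nascent droplets, read 6.12 and 6.26 in MCF10.AT1 and 6.13, 6.06 and 6.23 in MCF10.AT1-R. All 5 arrays lay within a narrow band, and the log2 change was -0.05 (95% interval from -0.47 to 0.37 from limma without a filter).

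Of the 4 hydrolases, NCEH1 was the one whose arrays overlapped between the lines. NCEH1 (TC0300013151.hg.1), the neutral cholesteryl ester hydrolase, read 6.70 and 6.77 in MCF10.AT1 and 6.69, 6.43 and 6.76 in MCF10.AT1-R. The values were interleaved apart from a lower B03, and the log2 change was -0.10 (95% interval from -0.55 to 0.34 from limma without a filter).

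The lipases that act in sequence on triglyceride were each higher in MCF10.AT1-R on every array, without passing the FDR threshold. PNPLA2 (TC1100006492.hg.1) read 3.90 on A01 and 3.59 on A02, and 4.27, 4.11 and 4.21 on B02, B03 and B04. The nearest arrays of the lines were 0.20 apart. The log2 change was 0.45 (95% interval from -0.16 to 1.06, adjusted p = 0.783 from limma).

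LIPE (TC1900010802.hg.1) had the largest log2 change of the 10 genes in the main comparison. MGLL had a larger one without A02 (0.72 against 0.56) and without B03 (0.71 against 0.67), and ACAT2 had the largest with A03 added back. LIPE read 4.52 on A01 and 4.20 on A02, and 4.88, 5.19 and 5.18 on B02, B03 and B04, with a gap of 0.35 between the lines. Averaged per line, this gave 4.36 ± 0.23 (SD, n = 2) for MCF10.AT1 against 5.08 ± 0.18 (SD, n = 3) for MCF10.AT1-R. The log2 change of 0.72 corresponds to 1.65-fold (95% interval from 0.11 to 1.33 on the log2 scale, adjusted p = 0.429 from limma and 0.188 with the trend option). The antisense gene LIPE-AS1, looked up after the values of LIPE were seen, read between 1.33 and 1.83 on the 5 arrays, within the negative controls.

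MGLL (TC0300012323.hg.1), which also degrades the endocannabinoid 2-arachidonoylglycerol, showed the widest gap between the lines, 0.56. It read 7.14 and 7.23 in MCF10.AT1 and 7.80, 7.81 and 7.99 in MCF10.AT1-R. The mean was 7.19 ± 0.07 (SD, n = 2) against 7.87 ± 0.11 (SD, n = 3), a log2 change of 0.68 or 1.60-fold. The adjusted p was 0.494 from limma with its common SD of 0.34 for all probe sets, and 0.000768 with the trend option. The residual SD of MGLL itself was 0.10.

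ACAT2 (TC0600010057.hg.1) read 6.91 on A01 and 6.66 on A02, and 7.48, 7.43 and 7.45 on B02, B03 and B04. The MCF10.AT1-R arrays lay close together and 0.52 or more above those of MCF10.AT1. The log2 change was 0.67, or 1.59-fold (95% interval from 0.05 to 1.28, adjusted p = 0.516 from limma and 0.00521 with the trend option). TCP1, a chaperonin gene whose end overlaps that of ACAT2 on the other strand, was looked up after these values were seen. It read 8.63 and 8.57 in MCF10.AT1 and 8.23, 8.26 and 8.34 in MCF10.AT1-R, which is a change of -0.33 in log2 value (adjusted p = 0.835 from limma), opposite in sign to that of ACAT2. ACAT1, the mitochondrial thiolase, changed by -0.34 with overlapping arrays (adjusted p = 0.835 from limma).

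**Figure D2:**
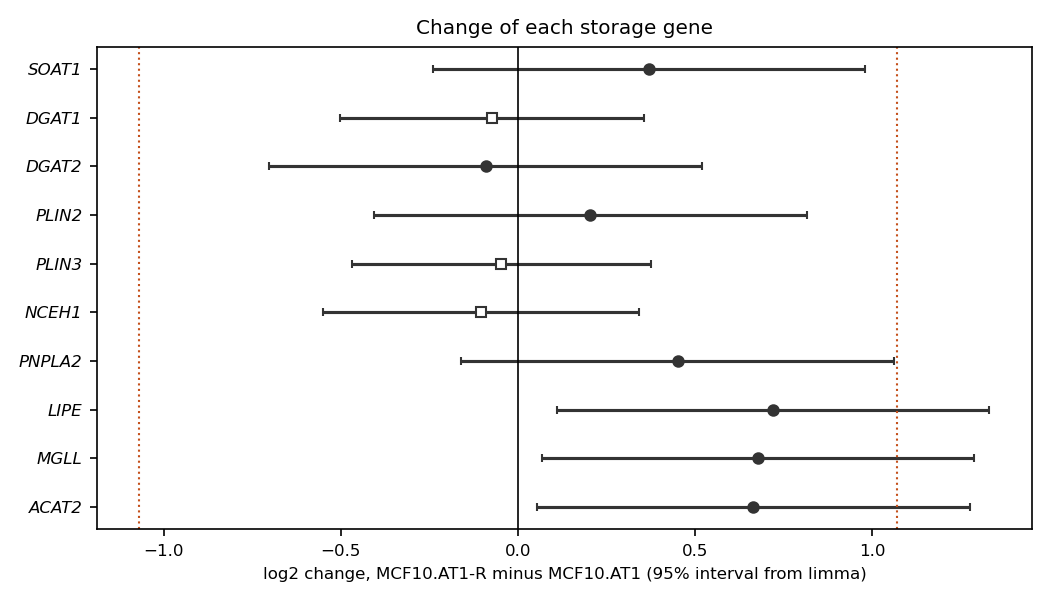
Log2 change of each storage gene, MCF10.AT1-R minus MCF10.AT1, with its 95% interval from limma. Intervals of tested genes rest on the common SD of 0.34 and have the same width, so their widths cannot be compared with those of the genes fitted without a filter. Filled circles are genes tested, open squares are genes removed as invariant whose values come from limma without a filter, and the dotted lines mark 1.07 in either direction, the smallest change past FDR 5% among all probe sets. Every change lies inside the dotted lines, and the intervals of LIPE, MGLL and ACAT2 do not reach 0.

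The genes were also averaged by role on each array, as a description without a test. The mean log2 value over the hydrolases NCEH1, PNPLA2, LIPE and MGLL was 5.57 on A01 and 5.45 on A02, and 5.91, 5.89 and 6.03 on B02, B03 and B04. MCF10.AT1-R was above MCF10.AT1 on every array, by 0.44 on average. The mean over the acyltransferases SOAT1, DGAT1 and DGAT2 was 5.52 and 5.53 in MCF10.AT1 and 5.68, 5.40 and 5.71 in MCF10.AT1-R, where B03 was the lowest of the 5. The difference of these means, hydrolases minus acyltransferases, was 0.04 on A01 and -0.09 on A02, and 0.23, 0.48 and 0.33 on B02, B03 and B04. It was higher in MCF10.AT1-R by 0.37. Since LIPE, MGLL and PNPLA2 make up most of the hydrolases, this difference restates their values.

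**Figure D3:**
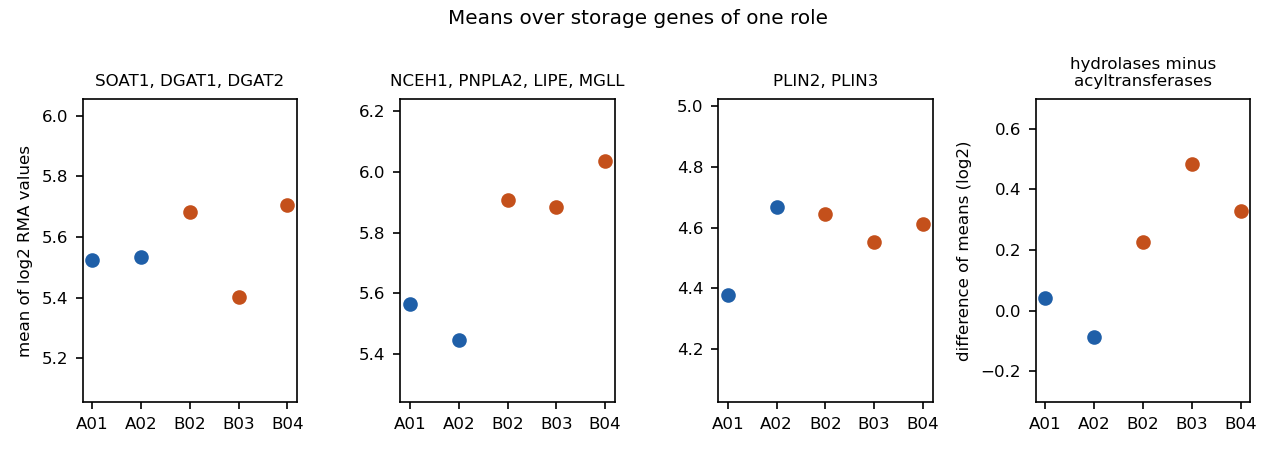
Means of log2 RMA values over storage genes of the same role on each of the 5 arrays, with MCF10.AT1 in blue and MCF10.AT1-R in orange; every panel spans 1 log2 unit. The hydrolase mean lies between 5.45 and 5.57 in MCF10.AT1 and between 5.89 and 6.03 in MCF10.AT1-R, whereas the acyltransferase and perilipin means overlap between the lines.

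On A03, 8 of the 10 storage genes read lower than on any other array, and 6 lay within the negative controls. ACAT2 read 1.85, NCEH1 1.84 and SOAT1 1.81 there, and MGLL read 3.81. PLIN2 at 3.29 was higher on A03 than on any other array, and PNPLA2 at 3.63 lay between A01 and A02. With A03 counted as MCF10.AT1, none of the 10 genes passed, and the log2 change of NCEH1, whose other arrays were interleaved, was 1.52.

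Genes of the surrounding pathways were read from 9 lists, which name 70 genes beside the 10. Of these 70, 51 were tested, and 2 were higher and 4 lower at an FDR of 5% in limma, where 1.01% of the tested gene symbols were higher and 0.509% lower. The 2 higher genes were enzymes of the mevalonate pathway, and without the 6 mevalonate enzymes there were 0 higher and 4 lower genes of 45 tested (FDR 5% in limma). With the trend option 2 were higher and 4 lower, where 1.69% of the probe sets tested were higher and 2.68% passed in either direction. The 4 lower genes were PDK4, FABP4, ACSL5 and CIDEC, which act in the handling of fatty acids and in droplet growth.

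PDK4, a kinase that turns cells from glucose to fatty acid oxidation, read 4.15 and 3.97 in MCF10.AT1 and 1.87, 1.83 and 2.09 in MCF10.AT1-R, where all arrays lay within the negative controls. The log2 change was -2.13 (adjusted p = 5.47e-09 from limma). Set against the negative control level, PDK4 was at least 2.10-fold lower (adjusted p = 0.0291 from limma with values raised to that level). FABP4, a carrier of fatty acids typical of adipocytes, fell by 1.93 on the log2 scale (adjusted p = 3.28e-07 from limma). It read 5.33 and 5.68 in MCF10.AT1 and 3.91, 3.52 and 3.30 in MCF10.AT1-R. Both belong to the list of PPAR target genes, of which 2 of the 7 tested fell and none rose, beside 0.509% and 1.01% of all tested gene symbols. PLIN2, a member of the same list, read at the negative controls, and ANGPTL4 changed by -0.24 with MCF10.AT1-R below MCF10.AT1 on every array (removed as invariant).

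ACSL5, a long-chain acyl-CoA synthetase, read 5.16 and 5.07 in MCF10.AT1 and 3.53, 3.65 and 3.98 in MCF10.AT1-R. It fell by 1.40 on the log2 scale (adjusted p = 0.00138 from limma), a call lost without A01 (log2 change -1.36, adjusted p = 0.109) and without A02 (log2 change -1.44, adjusted p = 0.0753). The other acyl-CoA synthetases did not pass. ACSL3, which supplies nascent droplets, changed by 0.50 (adjusted p = 0.742 from limma and 0.0252 with the trend option), and ACSL1 by 0.51 (adjusted p = 0.735 from limma), both without overlap between the lines.

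CIDEC, a protein that fuses droplets in fat cells, read 3.20 and 3.16 in MCF10.AT1 and 2.27, 1.40 and 1.89 in MCF10.AT1-R (adjusted p = 0.00335 from limma). It was barely above the negative controls in MCF10.AT1 and within them in MCF10.AT1-R, so that it was at least 1.14-fold lower, and with values raised to the negative control level it did not pass (adjusted p = 0.420 from limma). The call was lost without A01, without A02 and without B03 (adjusted p = 0.0609 from limma without B03). The log2 changes there were -1.31, -1.35 and -1.10, beside -1.33 with all 5 arrays, and rest on values within the negative controls. Of the 17 genes listed for the droplet coat and its assembly 10 were tested, and CIDEC alone passed, beside 0.509% of all tested gene symbols that were lower. Without overlap 3 of the 17 were higher and 5 lower, where 27.5% of gene symbols above the low-expression limit did not overlap. The genes without overlap include FITM1 and HSD17B13, below the negative control level on all 5 arrays, and CIDEA, above it on 2 (the 3 were looked up after their values were seen). HSD17B13 also lay below the low-expression limit, so it is not among the genes of that share. LDAF1, a partner of seipin in droplet formation that the file lists as TMEM159, changed by 0.73 (adjusted p = 0.421 from limma), and RAB18, a GTPase of droplets, by 0.29 (removed as invariant), both with MCF10.AT1-R higher on every array. HSD17B11 changed by -0.27 (adjusted p = 0.845 from limma) and PLIN5 by -0.21 (removed as invariant), with MCF10.AT1-R lower on every array.

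In the cholesteryl ester cycle, LIPA, the acid lipase that frees cholesterol from esters in lysosomes, came closest to the threshold. It read 6.41 and 5.85 in MCF10.AT1 and 7.38, 6.94 and 7.21 in MCF10.AT1-R, higher by 1.04 on the log2 scale (adjusted p = 0.0602 from limma and 3.21e-06 with the trend option). LIPA has 3 probe sets, of which the other two read no higher than 1.93 on any of the 5 arrays, and the mean log2 change over the 3 was 0.52. None of the 5 tested genes of this list passed in limma, and LIPA and LIPE were the genes without overlap, both higher in MCF10.AT1-R. This is 2 of the 7 listed, where 27.5% of gene symbols above the low-expression limit did not overlap. The study listed LIPA on these arrays too.

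The 17 genes of glycerolipid synthesis, which build triglyceride up to the step of the DGAT enzymes, gave no call among the 11 tested. Of the 17, 3 were higher and 2 lower without overlap, where 27.5% of gene symbols above the low-expression limit did not overlap. MOGAT1, MOGAT2 and MOGAT3 of this list lay below that limit, so the list and that share do not cover like genes. The phosphatidate phosphatases LPIN1 and LPIN3 were higher without overlap, by 0.35 (adjusted p = 0.830 from limma) and 0.47 (adjusted p = 0.768), whereas LPIN2 changed by -0.58 (adjusted p = 0.651). GPAT3, which adds the first fatty acid, read 5.67 and 5.57 in MCF10.AT1 and 5.10, 4.46 and 5.25 in MCF10.AT1-R, which differ by -0.68 (adjusted p = 0.487 from limma). The median log2 change of the list was -0.05. Of the 10 lipolysis genes the 3 without overlap were PNPLA2, LIPE and MGLL, and the list's median was 0.16. ABHD5, the activator of PNPLA2, lay below the negative control level on all 5 arrays, and G0S2, its inhibitor, lay above it on 2. The arrays of both genes overlapped between the lines, and no change could be read for either this near the negative controls (both were looked up after their values were seen).

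Of the 6 mevalonate enzymes listed beside ACAT2, 2 passed in limma, where 1.01% of all tested gene symbols were higher. With the trend option 4 passed, where 1.69% of the probe sets tested were higher. HMGCS1, which takes the product of ACAT2, rose by 1.57 on the log2 scale (adjusted p = 0.000121 from limma) and MVD by 1.69 (adjusted p = 1.82e-05 from limma). IDI1 changed by 1.02 (adjusted p = 0.0714 from limma and 2.72e-36 with the trend option), without overlap. The median over the 6 enzymes was 1.01, against the ACAT2 change of 0.67. MVK at 0.29 (adjusted p = 0.840 from limma) and PMVK at 0.17 (adjusted p = 0.901 from limma) lay below it. The study showed mevalonate enzymes as upregulated on the same arrays, so these calls are not independent evidence. Among the 6 thiolases ACAT2 had the highest log2 change, with SCP2 at 0.41 (adjusted p = 0.807, and 0.03 for its other probe set) and HADHB at -0.46 (adjusted p = 0.770), and none passed in limma. Of the 9 genes of fatty acid oxidation, 4 were tested and none passed, with a median log2 change of -0.10, and HADHA, a subunit of the mitochondrial trifunctional protein with HADHB, changed by 0.09 (removed as invariant).

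**Figure D4:**
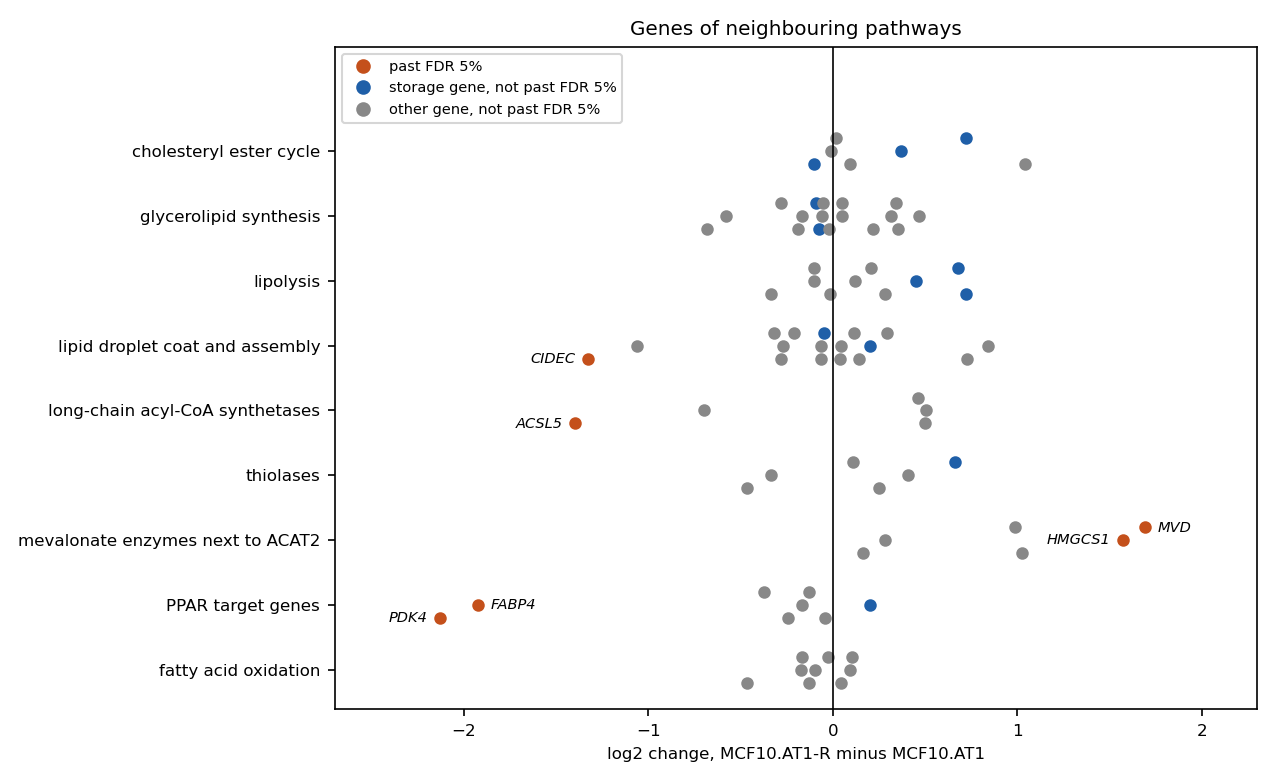
Log2 change, MCF10.AT1-R minus MCF10.AT1, of every gene of the 9 lists, 1 point per gene and list. Orange points passed FDR 5% in limma and are named, blue points are storage genes and grey points are other genes, neither of which passed. The named genes left of 0 are PDK4, FABP4, ACSL5 and CIDEC, and those right of 0 are HMGCS1 and MVD.

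Markers of other cells that hold lipid droplets were compared beside these genes. Of the 7 adipocyte markers 5 were tested, and FABP4 and CIDEC were lower at FDR 5% in limma and none was higher, where 0.509% of all tested gene symbols were lower, a share that serves for the next lists too. In addition, the defining hormones ADIPOQ and LEP lay within the negative controls on all 5 arrays. The summed linear level of the 7 was 102.4 and 93.1 in MCF10.AT1 and 54.2, 46.9 and 58.0 in MCF10.AT1-R. FABP4 had the highest mean over the 5 arrays, and LPL read higher than FABP4 in MCF10.AT1-R on average. FABP4 and CIDEC are thus counted in 2 lists. Of the 6 macrophage markers 3 were tested and CD14 was lower (log2 change -1.12, adjusted p = 0.0298 from limma and 0.157 without a filter), PTPRC and AIF1 lay within the negative controls, and the summed level was 69.7 and 74.6 against 71.6, 54.1 and 76.0. CSF1R had the highest mean over the 5 arrays, and CD14 read higher than CSF1R in MCF10.AT1. Of the 5 fibroblast markers 2 were tested and DCN was lower (adjusted p = 3.88e-09 from limma). DCN read 2.76 on B03, within the negative controls, so that it was at least 4.2-fold lower when set against their level. LUM lay within the negative controls, and the summed level was 190.2 and 223.6 against 194.0, 189.2 and 178.7, with COL1A1 the highest. The part of other cell types in the falls of FABP4 and CIDEC was not tested beyond these levels.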

How the data were processed

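The deposited table gives RMA values on the log2 scale, which the authors made from Clariom D arrays of both lines with the Bioconductor packages affy and oligo. The genome build is not given in the sources used here. The table holds 138745 rows, of which 2995 control probe sets were left out of the comparison. The lines of the arrays follow from the array names and the study's removal of A03.

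A filter kept probe sets whose mean over the 5 arrays exceeded the median (1.88) and whose SD exceeded that of the lowest 25% (0.18). The lines were compared in limma 3.58.1 (lmFit, eBayes; R 4.3.3), two-sided, with Benjamini-Hochberg adjustment over the 51457 tested. This fit was tested on simulated data. Genes removed as invariant were fitted without the filter. Intervals are limma's 95% intervals. In the main fit limma gave every tested probe set the same SD, 0.34 on the log2 scale. Intervals and p-values of tested genes thus do not reflect their own spread, and a call there is a cutoff on the log2 change. With the trend option the SD followed the expression level alone, again not the spread of the gene itself.

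The members and lists were chosen with earlier results of these data known. Text names all members, every list gene past FDR 5% and, per list, up to 2 rises and 2 falls without overlap, above the negative controls in at least 1 line; 1 gene that this rule names is not reported here. The number of arrays limits the precision.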

Additional observations from a re-analysis of the deposited data

How the results depend on the processing

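Of the 16 alternatives, array weights (with A03 added back) and the low-expression filter alone with trend changed 2 choices together, and the others 1. LIPE, MGLL, ACAT2, PNPLA2 and SOAT1 were higher in MCF10.AT1-R under each of them, with log2 changes over the settings that leave A03 out from 0.56 to 0.88, 0.62 to 0.72, 0.54 to 0.79, 0.29 to 0.61 and 0.15 to 0.59. None of the 10 genes passed in the main comparison, 2 passed with the trend option (MGLL and ACAT2), 2 with the low-expression filter alone and trend (MGLL at adjusted p = 0.00667 and ACAT2 at 0.0134), and 1 with array weights over 6 arrays (LIPE, 0.84, adjusted p = 0.0454). Over all alternatives the adjusted p lay between 0.000768 and 0.942 for MGLL, between 0.00521 and 0.942 for ACAT2, and between 0.0454 and 0.942 for LIPE. DGAT2 turned to 0.24 with A03, 0.11 without A02 and 0.07 without B03, and ranged from -0.29 to 0.11 with an array left out. PLIN2 turned to -0.11 with its probe sets averaged and ranged from -0.017 without A01 to 0.43 without A02; PLIN3 turned to 1.02 with A03 and 0.022 without A02, and DGAT1 and NCEH1 to 1.34 and 1.52 with A03. A03 read lower than any other array for DGAT2, PLIN3, DGAT1 and NCEH1, which lowers the MCF10.AT1 mean when A03 is added. The cause of these low readings and of the other turns was not tested. None of the 5 genes that turned passed where it was tested. That was in 16 settings for DGAT2, 12 for PLIN2 and 6 each for PLIN3, DGAT1 and NCEH1.

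Of all probe sets, 620 passed in the main comparison, 26 with A03 added back, 1744 with array weights, 182 with the low-expression filter alone, 177 with no filter, 1377 with trend, 1086 with the low-expression filter and trend, 272 with values raised to the negative control level, and 271 to 595 with an array left out. Storage genes without overlap numbered 4, 5 with the arrays quantile normalized again, and 4 to 8 with an array left out. The 8 were found without A01, when 1 array of MCF10.AT1 remained (5 higher and 3 lower). In that setting 54.4% of gene symbols above the low-expression limit did not overlap, against 39.6% to 52.7% without each other array. With an array left out none of the 6 or 7 storage genes tested passed; a lone MCF10.AT1 array was assumed to vary like the others. PDK4, HMGCS1 and MVD lost their calls in 1 setting, with A03 added back (adjusted p = 0.777 from limma for each). Their log2 changes there were -1.38, 3.01 and 2.52. FABP4 lost its call there, with a log2 change of -0.89. It also lost its call with values raised to the negative control level (adjusted p = 0.0570 from limma, with its log2 change still -1.93). ACSL5 passed in 10 of the 16 settings and CIDEC in 9. Neither passed in limma without a filter (adjusted p = 0.0736 and 0.224), with log2 changes unchanged at -1.40 and -1.33. No paired analysis was possible because the array columns carry no replicate number of the labels. RMA values near the negative controls limit what can be read for PLIN2, CIDEC, PDK4 and DCN.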
